A study of Mus musculus with 2 samples.

Results

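The 10 genes described here encode parts of the transforming growth factor beta (TGF-beta) pathway: the ligands Tgfb1 and Tgfb3, the receptors Tgfbr1 and Tgfbr2, the signal carriers Smad2, Smad3 and Smad4, the inhibitor Smad7 and the repressors Ski and Skil. They were chosen by name, out of 18193 genes with a named probe set, and every probe set whose only gene symbol in the platform annotation was one of the 10 was taken, which gave 23 probe sets of 34945. Memory T helper 2 (Th2) cells were sorted into those that made interleukin-5 (IL-5+) and those negative for it (IL-5-), and the study compared them on 1 Affymetrix array each. Both groups came from BALB/c CD4 T cells whose T cell receptor is the DO11.10 transgene, specific for an ovalbumin peptide. The cells were grown for 6 days with that peptide, 25 U/ml IL-2 and 100 U/ml IL-4, transferred into athymic BALB/c nu/nu mice, which lack a thymus, and taken from the spleen after 30 days for the sort. All cells thus share the same receptor transgene and a history in hosts with few T cells of their own. The number of recipient mice, any pooling and the stimulation before the sort are not given in the labels.

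TGF-beta is made as a latent protein, is released from its propeptide outside the cell, and binds a type II receptor (Tgfbr2) that phosphorylates a type I receptor (Tgfbr1). The type I receptor phosphorylates SMAD2 and SMAD3, which join SMAD4 and enter the nucleus. SMAD7 blocks the active receptor, and SKI and SKIL (also called SnoN) bind the SMADs on DNA and repress their targets. In T cells TGF-beta is known for restraining Th1 and Th2 differentiation, and for promoting regulatory T cells, Th17 cells and, with IL-4, IL-9 production.

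There was 1 array per group, so no p-value could be had and every difference below describes these 2 RNA samples only. Values are signal intensities as deposited. A floor of 36.3, the 40th percentile over both arrays, replaced lower signals before a ratio was taken, and a log2 ratio is that of IL-5+ over IL-5-. As a measure of error, the log2 ratios of different probe sets of 1 gene were compared. Their SD was 0.13 for mean signals above 2000, 0.21 between 500 and 2000, 0.37 between 112.8 and 500, and 0.55 below that and above the floor. Differences between cell preparations are not part of it. Nor is disagreement between a brighter and a dimmer probe set of 1 gene in different classes, as for Tgfb1, Smad7 and Skil, so the error may be larger. The sort marker Il5 reached 37085 in IL-5+ cells, against 67.4 in IL-5- cells. All 9 T cell genes with a named probe set were above the floor on both arrays, with summed signals of 56089 in IL-5+ and 67507 in IL-5- cells. Of the 9, 7 had log2 ratios below 0 and 2 above. The lowest were Cd3g (-0.71), Cd3d (-0.57), Cd2 (-0.42) and Cd3e (-0.34), where the SD at their signals is 0.13. Lists of 6 to 9 markers with named probe sets for platelets, B cells, monocytes, dendritic cells, neutrophils, eosinophils and mast cells, CD8 and NK cells, and stroma summed to between 62.3 and 681 in IL-5+ cells and between 134 and 925 in IL-5- cells. Of these markers 1 differed by 2-fold, where 2.85% of all genes were higher and 4% lower. It was the MHC class II gene H2-Aa (51 in IL-5+ and 155.8 in IL-5- cells, log2 ratio -1.61, and -0.47 with a floor of 112.8). H2-Ab1 (-0.68) and H2-Eb1 (-0.61), of the same class, were also lower, and Itgax passed the floor in IL-5- cells alone (70.1). Other dendritic cell markers did not share this direction. Cd74 stood at -0.23, and Xcr1 passed the floor in IL-5+ cells alone (41.1). Zbtb46 was higher (150 in IL-5+ and 79.1 in IL-5- cells, 0.92), although its 3 measured probe sets ranged from -0.33 to 0.92. The part of cells that carry these markers in the values below was not tested. In bulk RNA, fewer cells that express a gene and less RNA per cell cannot be told apart.

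None of the 10 genes differed by 2-fold in either direction. Tgfb1 was the gene with the highest ratio (log2 ratio 0.86) and Ski the gene with the lowest (-0.70). Of the 9 genes measured on both arrays, 0 were higher and 0 lower by 2-fold or more, where 2.85% and 4% of 13145 genes were. At 1.5-fold, 1 gene was higher (Tgfb1) and 1 lower (Ski), against 7.88% and 11.9% of all genes. The remaining genes formed a graded series from Smad7 (-0.57) and Tgfbr1 (-0.49) through Skil (-0.17), Tgfbr2 (-0.12), Smad4 (-0.077) and Smad3 (-0.055) to Smad2 (-0.017). The median of the 9 genes was -0.12, beside -0.047 over the 10994 genes measured on both arrays. Of the 9, 8 lay below 0, beside 55.7% of all genes. Dividing each array by its median signal added 0.079 to the log2 ratio of each of these genes, which left 5 of the 9 and 46.5% of all genes below 0. Smad2, Smad3 and Smad4 then stood at 0.061, 0.024 and 0.0011, so their signs depend on scaling. The difference from 0 exceeded 1 SD of the probe set disagreement in 5 genes, namely Tgfb1, Ski, Smad7, Tgfbr1 and Skil, and 2 SD in the first 4 of these. With array medians Skil (0.66 SD) no longer exceeded 1 SD and Tgfbr1 (1.99 SD) no longer 2 SD.

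Promoter sequence was read for 5 of the 10 genes, namely Tgfb1, Tgfbr1, Tgfbr2, Smad3 and Ski (RefSeq, GRCm38.p6). Promoters of the other genes, among them Smad2, Smad4 and Smad7, were left out and not examined. The 250 bases before the annotated start are shown for Tgfb1 and Ski, the 2 genes beyond 1.5-fold, 5′ to 3′ on the gene's strand, with each GC box (GGGCGG or its reverse complement CCGCCC, the sequence read by Sp1) in capitals. The Tgfb1 window is chr7:25686752-25687001 on the + strand and the Ski window chr4:155222536-155222785 on the - strand.
Tgfb1: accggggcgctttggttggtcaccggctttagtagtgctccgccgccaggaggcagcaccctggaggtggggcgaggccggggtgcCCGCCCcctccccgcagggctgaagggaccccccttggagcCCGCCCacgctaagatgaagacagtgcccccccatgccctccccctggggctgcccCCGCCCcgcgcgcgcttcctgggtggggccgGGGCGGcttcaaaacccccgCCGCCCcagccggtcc
Ski: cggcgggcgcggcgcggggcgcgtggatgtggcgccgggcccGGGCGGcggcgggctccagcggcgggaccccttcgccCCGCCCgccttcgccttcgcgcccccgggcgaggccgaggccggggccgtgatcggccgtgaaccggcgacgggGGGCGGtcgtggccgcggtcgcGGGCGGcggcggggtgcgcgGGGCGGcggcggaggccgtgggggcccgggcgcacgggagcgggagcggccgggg

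Both windows hold 5 GC boxes, and 32.7% of 32851 promoter windows of the same length hold at least 1. The G and C content was 75.2% for Tgfb1 and 87.6% for Ski, beside a median of 52.4% over all windows. Neither window has a SMAD box (CAGAC or GTCTG, found in 42.2% of windows) or an AP-1 site (TGANTCA on either strand, found in 6.75%). The main Tgfbr1 window and that of Smad3 hold 2 GC boxes each and no SMAD box. The Tgfbr2 window and a second Tgfbr1 window hold no GC box and 1 SMAD box each. The 2 genes with opposite ratios thus had the same motif counts in these windows, and a match in letters is a description, not a binding site. The signal of Sp1 itself was 2610 in IL-5+ cells, against 2931 in IL-5- cells (-0.17).

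Among the ligands, Tgfb1, the TGF-beta isoform that dominates in lymphocytes, reached 1088 in IL-5+ cells and 598 in IL-5- cells when read at the brighter probe set (1420653_at), 1.82-fold higher in IL-5+ cells. Of the 5294 named probe sets with mean signals from 500 to 2000, 2.72% had a ratio at least as high. The second Tgfb1 probe set (1445360_at) went the other way, with 240 in IL-5+ and 334 in IL-5- cells (log2 ratio -0.48), which is 1.29 times the SD at its signal. The 2 probe sets were thus 1.34 apart on the log2 scale, the widest disagreement among the members, and the median of the 2 was 0.19. The direction of the Tgfb1 difference therefore depends on the probe set. Platelets carry much TGF-beta1, and platelet markers summed to 342 in IL-5+ and 442 in IL-5- cells. Of 6 platelet markers with a named probe set, Pf4, Ppbp and Clec1b were under the floor on both arrays. The brightest, Itga2b and Treml1, had signals of 226 and 38.2 in IL-5+ cells and of 276 and 48.7 in IL-5- cells. Their part in the Tgfb1 values was not tested. Tgfb3, a second isoform, was under the floor on both arrays (2.6 in IL-5+ and 19.7 in IL-5- cells) and has no ratio.

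Both receptor genes were expressed in each fraction, at probe sets well above the floor. Tgfbr1, the type I receptor, had a signal of 1273 in IL-5+ cells and 1784 in IL-5- cells (1420895_at), a log2 ratio of -0.49 that 8.75% of probe sets of like signal reached or passed downward. Tgfbr2, the ligand-binding type II receptor, had 2621 in IL-5+ and 2839 in IL-5- cells (1426397_at), a difference of 0.86 times the SD at that signal. The lower ratio was thus seen at Tgfbr1, while Tgfbr2 lay within the probe set disagreement; the difference between the 2 genes was not tested. The other 2 probe sets of Tgfbr1 and the other 2 of Tgfbr2 were near or under the floor on both arrays. They ranged from 11.8 to 39.1 in IL-5+ cells and from 9.7 to 19.3 in IL-5- cells, and gave no usable ratio.

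**Figure D1:**
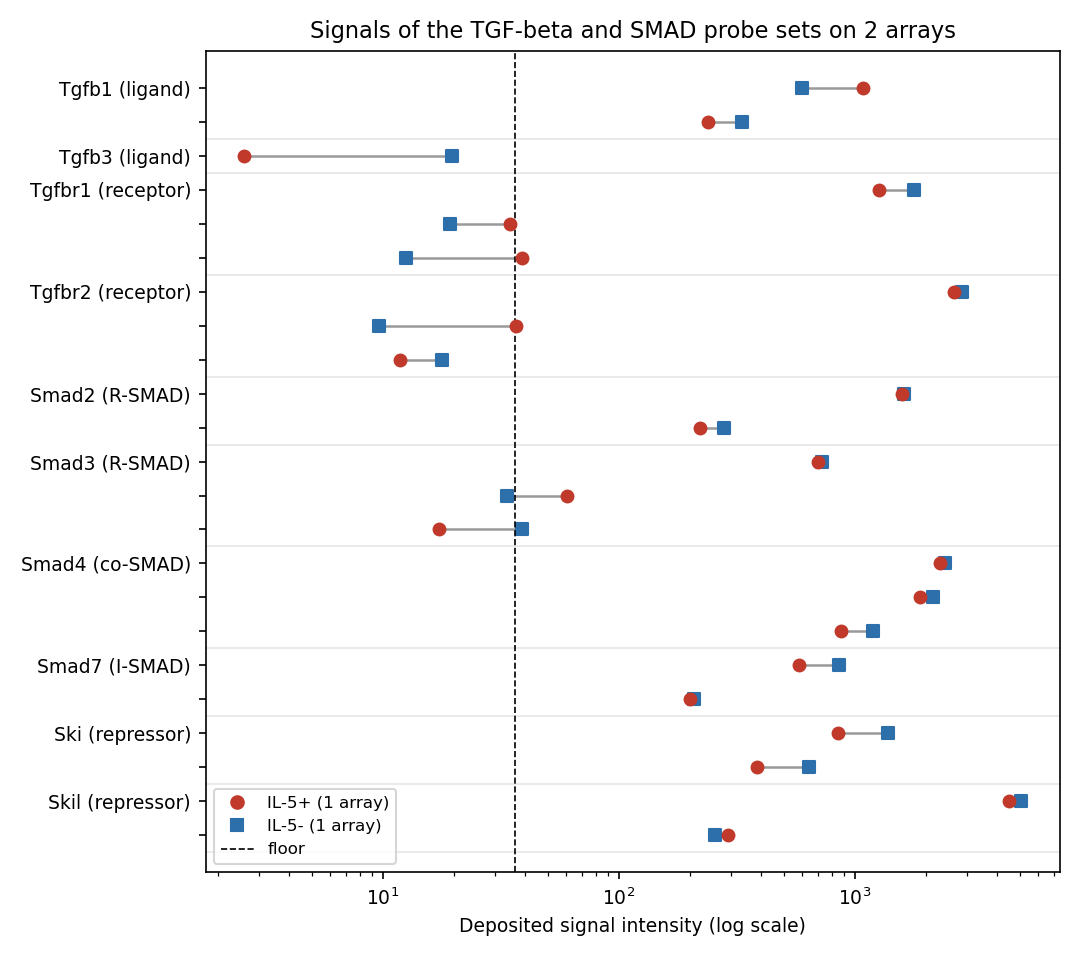
Deposited signal (horizontal log axis) of each of the 23 probe sets of the 10 genes on the IL-5+ array (red circles) and the IL-5- array (blue squares), with the floor of 36.3 as a dashed line; probe sets of a gene follow each other from bright to dim. R-SMAD, co-SMAD and I-SMAD stand for the receptor-regulated, common and inhibitory SMADs, and 16 probe sets lie above the floor on both arrays.

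The receptor-regulated SMADs had nearly the same signals on both arrays. Smad2 had a signal of 1590 in IL-5+ and 1610 in IL-5- cells for the brighter probe set (1420634_a_at). The other had 221 in IL-5+ and 279 in IL-5- cells (log2 ratio -0.34, 0.91 times the SD at that signal). Smad3, which carries much of the TGF-beta response in T cells, had 700 in IL-5+ and 727 in IL-5- cells (1454960_at). Both brightest ratios lay within 0.27 SD of 0. Of the other 2 Smad3 probe sets, 1 was above the floor only in IL-5+ cells (60.5 in IL-5+ and 33.7 in IL-5- cells) and 1 only in IL-5- cells (17.3 in IL-5+ and 39 in IL-5- cells), so these dim probe sets pointed in opposite directions.

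Smad4, the common partner of all receptor-regulated SMADs, had 3 probe sets above the floor on both arrays, and all 3 were lower in IL-5+ cells as deposited. The signals were 2296 in IL-5+ and 2423 in IL-5- cells at the brightest (1422487_at), 1891 in IL-5+ and 2140 in IL-5- cells at the second, and 876 in IL-5+ and 1189 in IL-5- cells at the third. Their log2 ratios were -0.077, -0.18 and -0.44, so the difference ranged from within the probe set disagreement to 2.15 times it. The brightest moved to 0.0011 with each array divided by its median.

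Smad7, the inhibitory SMAD, which TGF-beta itself induces, had a signal of 580 in IL-5+ cells and 860 in IL-5- cells (1423389_at), 1.48-fold lower in IL-5+ cells. Of the probe sets of like signal, 6.50% had a ratio at least as low. The second Smad7 probe set (1443771_x_at, 201 in IL-5+ and 208 in IL-5- cells, log2 ratio -0.052) showed no such difference, and it turned to between 0.013 and 0.026 in the 3 other scalings.

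Ski was the member on which the probe sets were closest. The first (1429192_at) had 850 in IL-5+ and 1382 in IL-5- cells, and the second (1426373_at) 386 in IL-5+ and 642 in IL-5- cells. Both were lower in IL-5+ cells, at log2 ratios of -0.70 and -0.74, which are 3.41 and 1.99 times the SD at their signals. At the first, 4.40% of probe sets of like signal had a ratio at least as low. The gene stayed between -0.72 and -0.62 under all 9 alternatives that give it a ratio. The changes of floor and the removal of suffixed probe sets could not move it, since both probe sets are bright and without suffix. Skil, the close relative of Ski and itself a TGF-beta target, had 4504 in IL-5+ and 5057 in IL-5- cells for the brighter probe set (1452214_at, log2 ratio -0.17) but 289 in IL-5+ and 256 in IL-5- cells for the other (0.18). Its probe sets thus gave opposite signs with small differences, unlike those of Ski.

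**Figure D2:**
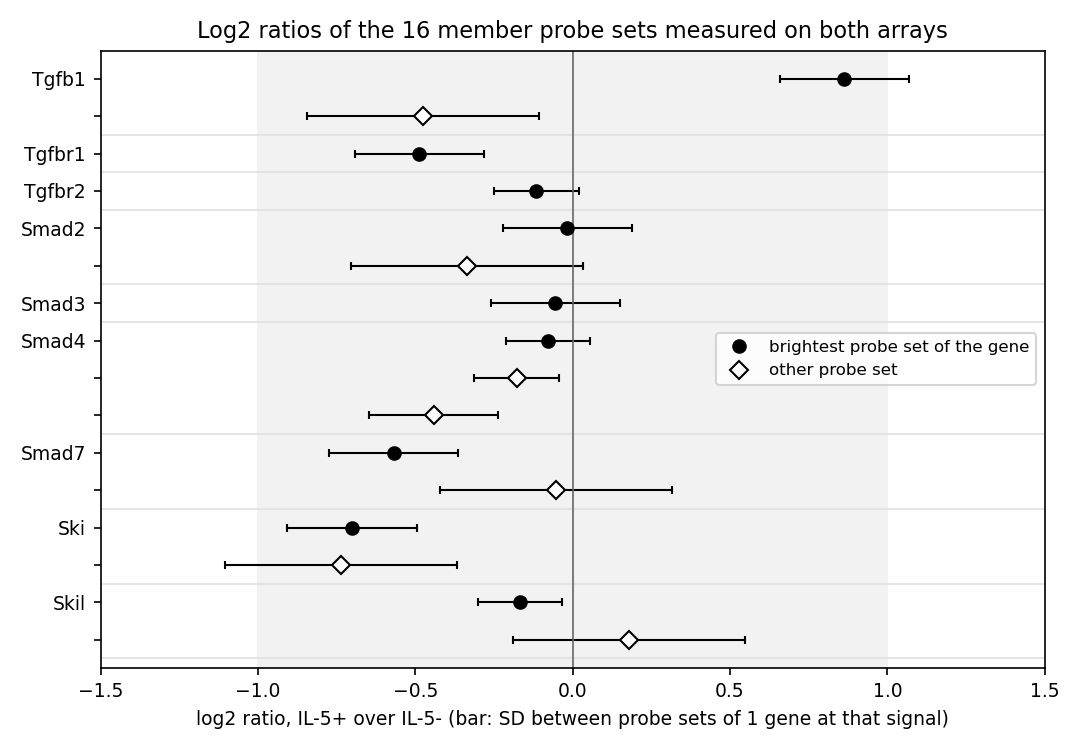
Log2 ratio, IL-5+ over IL-5- (horizontal axis), of the 16 member probe sets above the floor on both arrays; filled circles are each gene's brightest probe set, open diamonds its others, and bars the SD between probe sets of 1 gene at that signal. The grey band marks less than 2-fold; all 16 lie in it, the 2 Ski probe sets are both near -0.7, and the 2 Tgfb1 probe sets lie on opposite sides of 0.

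Across the 23 member probe sets, 16 were above the floor on both arrays, 3 on the IL-5+ array only, 1 on the IL-5- array only and 3 on neither. Of the 16, 14 had a ratio below 0, beside 53.5% of the 20181 named probe sets measured on both arrays. The median of the 16 was -0.17, beside -0.032. With each array divided by its median, 10 of the 16 and 44.9% of all named probe sets lay below 0. Probe sets of 1 gene share its transcripts and are not independent of each other. Among the 20 probe sets with a ratio or a bound, 0 reached 2-fold either way, beside 2.94% of all named probe sets higher and 3.89% lower.

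**Figure D3:**
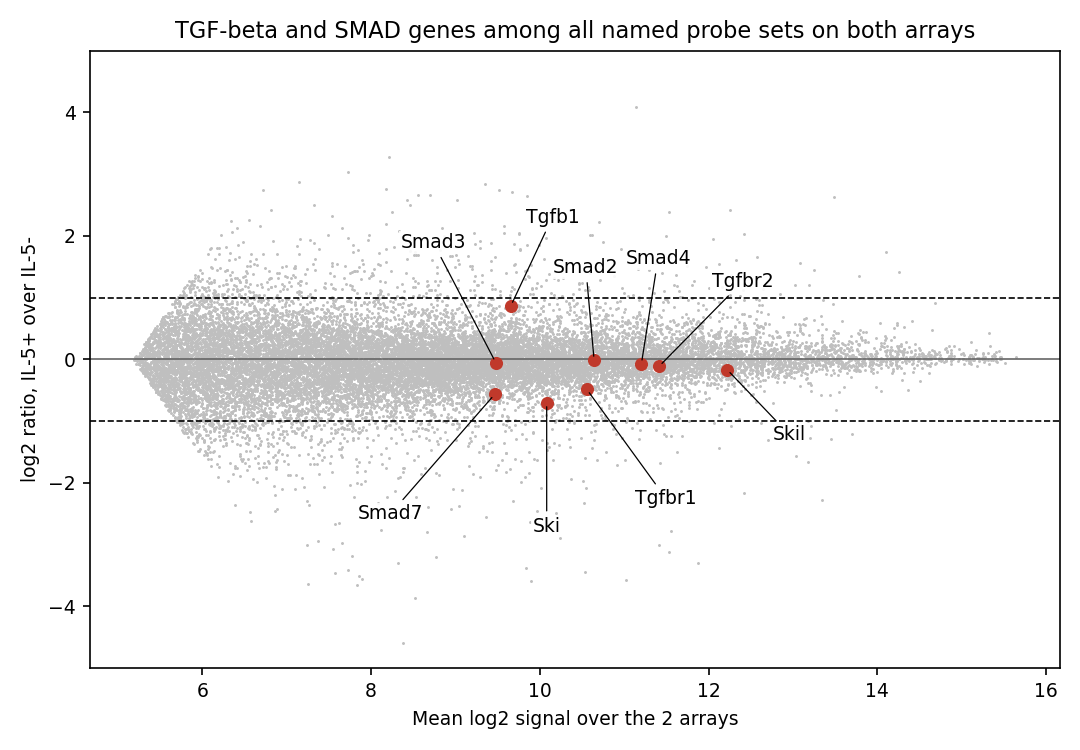
Log2 ratio, IL-5+ over IL-5- (vertical axis), against mean log2 signal over both arrays (horizontal axis) for the 20181 named probe sets above the floor on both arrays (grey; 1 lies outside the axis range), with the brightest probe set of the 9 measured members in red. Dashed lines mark 2-fold; Tgfb1 is the only member clearly above 0, and Ski, Smad7 and Tgfbr1 lie lowest.

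Some other genes of the pathway differed by more than any of the 10. In 7 lists of other pathway components, 89 genes had a named probe set and 79 a ratio or bound. Of these, 6 were higher in IL-5+ cells by 2-fold or more (7.59%) and 5 lower (6.33%), beside the 2.85% and 4% of all genes. The median over the 67 measured on both arrays was 0.072. With the floor raised to 112.8, 4 of the components were higher and 2 lower by 2-fold. Of all genes, 183 were then higher and 226 lower. The members and all lists were chosen with earlier results of these data known. Shares set beside those of all genes, here and for each list below, are therefore no independent test.

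Of the other ligands of the superfamily, 6 of 10 were above the floor on both arrays. All 6 had ratios above 0 (median 0.46), beside 55.7% of all genes below 0. Inha (0.28), Lefty1 (0.25) and Bmp7 (0.23) lay within 1 SD of 0 at their signals (SD 0.55, 0.55 and 0.37). Inhba, which encodes the subunit of activin A, was the only member at 2-fold, with 2134 in IL-5+ and 545 in IL-5- cells (log2 ratio 1.97, from 1 of 2 probe sets). Activin A signals through its own receptors to the same SMAD2 and SMAD3. Tgfb2 was dim (127 in IL-5+ and 79.8 in IL-5- cells), with 3 probe sets from 0.67 to 1.45. Inhbb (0.65) and Inha (0.28) were dim as well.

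Among genes for latency and activation, the 4 measured on both arrays had ratios above 0, beside 55.7% of all genes below 0. Furin, the protease that cleaves the TGF-beta precursor, had 2245 in IL-5+ and 1247 in IL-5- cells (0.85). Ltbp3, a latent TGF-beta binding protein, had 296 in IL-5+ and 176 in IL-5- cells (0.76). Itgav, the alpha chain of integrins that release active TGF-beta, stood at 0.70, although its 4 measured probe sets ranged from -0.95 to 1.25. Itgb8, a beta chain that pairs with it, passed the floor in IL-5- cells alone (26.2 in IL-5+ and 93.2 in IL-5- cells, at least 2.57-fold lower), as did Ltbp4 (30.1 in IL-5+ and 75.3 in IL-5- cells, at least 2.07-fold lower). Both were under a floor of 112.8 and have no ratio there, and Ltbp4 stood at -0.75 with an added constant.

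Of these 7 lists, that of other receptors held the largest difference in either direction. Tgfbr3, or betaglycan, a co-receptor that presents TGF-beta to Tgfbr2, had 154 in IL-5+ cells and 1073 in IL-5- cells, 6.97-fold lower in IL-5+ cells (log2 ratio -2.80, from 1 of 2 probe sets). Bmpr2, the type II receptor for bone morphogenetic proteins, had 2517 in IL-5+ and 492 in IL-5- cells, 5.12-fold higher, and both its measured probe sets passed 2-fold (2.02 and 2.36). Both genes stayed beyond 2-fold under all 9 alternatives run for them. The changes of floor could not move them, since their brightest probe sets were above 112.8 on both arrays. Acvr1, a type I receptor, was higher (165 in IL-5+ and 54.3 in IL-5- cells, log2 ratio 1.60), but its 3 probe sets ranged from 0.054 upward and their median was 0.22. Eng, or endoglin, another co-receptor, was dim (131 in IL-5+ and 59.6 in IL-5- cells, log2 ratio 1.14) and stood at 0.80 when a constant replaced the floor. Of 13 genes in this list, 12 had a ratio or bound. Of these, 3 were higher and 1 lower by 2-fold, beside 2.85% and 4% of all genes. Of the other SMADs, Smad1 (-0.22) and Smad5 (0.16) were measured on both arrays, Smad9 passed the floor in IL-5+ cells alone (38.6), and Smad6 in neither.

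Regulators of the receptors and SMADs had a median of -0.080, with 1 of 22 at least 2-fold higher and 2 lower, beside 2.85% and 4% of all genes. Pmepa1, a TGF-beta-induced membrane protein that holds back SMAD2 and SMAD3, had 583 in IL-5+ and 1347 in IL-5- cells (log2 ratio -1.21), and its 3 probe sets ranged from -1.43 to -0.80. Ldlrad4, a relative with a like function, was dim (25.7 in IL-5+ and 79.9 in IL-5- cells, a bound of -1.14 on the log2 scale). It stood at -0.91 with an added constant and had no ratio with a floor of 112.8. Zfyve16, an endosomal protein that binds SMADs, was higher (436 in IL-5+ and 158 in IL-5- cells, log2 ratio 1.47), and Zfyve9, the SMAD anchor SARA, passed the floor in IL-5- cells alone (68.2). SMAD partners in the nucleus had a median of -0.25, and 12 of 16 lay below 0, beside 55.7% of all genes. Of the 12, Crebbp (-0.096), Atf2 (-0.061) and Hdac1 (-0.041) lay near 0. Atf2 and Hdac1 are nearer 0 than the 0.079 that scaling by array medians adds. Zeb2, a repressor that binds SMADs, was the exception at 2-fold, with 2629 in IL-5+ and 893 in IL-5- cells and all 5 probe sets between 1.40 and 1.82. Rbl1 (-0.89), the p107 protein that acts with SMAD3, and the acetyltransferase gene Kat2b (-0.78) were lower, while Jun stood at 0.60.

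**Figure D4:**
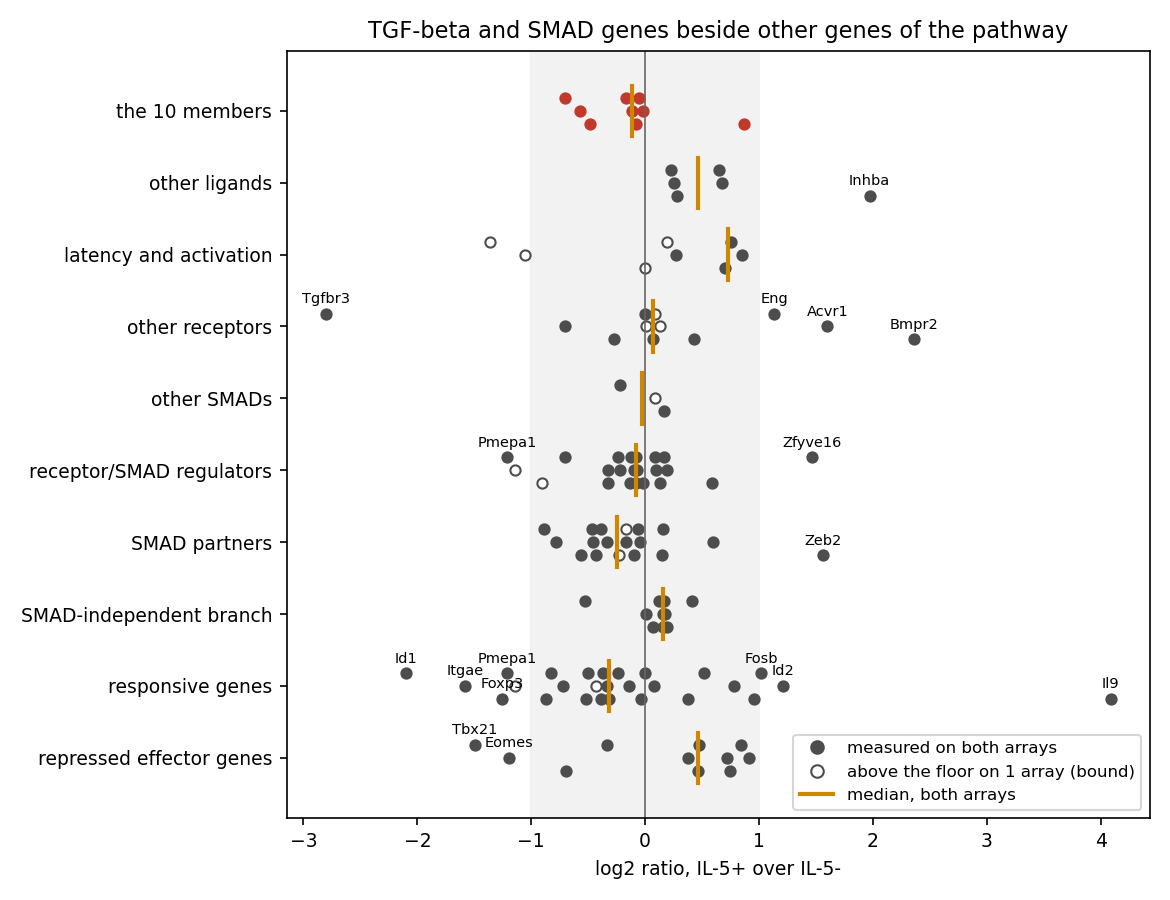
Log2 ratio, IL-5+ over IL-5- (horizontal axis), of the 10 members (red, 9 shown) and of genes in other lists of the pathway (grey), 1 row per list; filled points were above the floor on both arrays, open points on 1 only, and the orange bars are medians over the filled points. The grey band marks less than 2-fold; no member leaves it, whereas Tgfbr3, Bmpr2, Inhba, Zeb2 and Pmepa1 do.

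The list of genes known to respond to TGF-beta in T cells holds both induced genes, such as Itgae and Pmepa1, and repressed ones, such as Myc and Il7r, so it has no single direction. Of 27 with a ratio or bound, 3 were higher and 5 lower in IL-5+ cells by 2-fold or more, beside 2.85% and 4% of all genes, and the median over 25 was -0.32. The count of lower genes was 2 with a floor of 112.8 or without suffixed probe sets, and 3 with an added constant. The higher genes were the cytokine gene Il9 (9277 in IL-5+ and 547 in IL-5- cells, log2 ratio 4.08), Id2 (1.21) and Fosb (1.02). Id2, an inhibitor of E proteins, stood at 0.45 when probe sets with the suffixes _s_at, _x_at and _a_at were left out, and Fosb at 0.93 with an added constant. The lower genes were Id1 (59.3 in IL-5+ and 254 in IL-5- cells, -2.10), Itgae (66.1 in IL-5+ and 198 in IL-5- cells, -1.58), Foxp3 (39.6 in IL-5+ and 94.6 in IL-5- cells, -1.26), Pmepa1 and Ldlrad4. Id1 stayed beyond 2-fold under the 8 alternatives run for it. Itgae, the integrin chain CD103 induced by TGF-beta, stood at -0.44 at its other probe set, and Foxp3 at -0.79 with an added constant. Klf10, a TGF-beta-inducible repressor, and the corepressor gene Tgif1 were lower by less than 2-fold, at -0.72 and -0.33 (both are named after their values were seen). In the same list Cdkn1b (0.96), Runx1 (0.78), Cdkn1a (0.52) and Pdcd1 (0.37) were higher by less than 2-fold. Of the 25 genes measured on both arrays, 9 lay above 0 and 16 below, beside 55.7% of all genes below 0.

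Regulatory T cells make and answer to TGF-beta. Of 8 of their markers with a named probe set, 3 were lower by 2-fold or more (Ikzf2, Itgae and Foxp3) and 1 higher (Nrp1, 1.77), beside 4% and 2.85% of all genes. Itgae, Foxp3 and Ctla4 are also in the list of responsive genes, so the lists are not independent. The count of lower markers was 1 with a floor of 112.8 or without suffixed probe sets, and 2 with an added constant. Capg, an actin-capping protein, stood at 0.68. The markers had summed signals of 26669 in IL-5+ and 26863 in IL-5- cells. Ikzf2 had 216 in IL-5+ and 732 in IL-5- cells (-1.76), and the brightest, Tnfrsf18 and Il2ra, stood at -0.18 and -0.24. No marker of the list was at 0, and its defining marker Foxp3 was near the floor in IL-5+ cells (39.6) but above it in IL-5- cells (94.6). The part of such cells in the Ski, Smad7, Tgfbr1 and Pmepa1 values was not tested.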

How the data were processed

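The deposited table gives, for each probe set, a linear signal intensity per array that the authors made with GCOS, the Affymetrix software, per the submitters' processing notes. Version, algorithm and scaling target of GCOS are not stated there. The trimmed mean intensity (2% removed at each end) was 496 for IL-5+ and 497 for IL-5- cells, so ratios are relative to the rest of each array. Detection calls were not used here, and precision is limited by the number of arrays. Of 45037 probe sets, 34945 had 1 gene symbol, 932 several and 9160 were not listed. Where a gene had several probe sets, the brightest by mean log2 signal stood for it. The named genes were the members, up to 4 genes with the largest ratio and every gene at 2-fold from each pathway list, and the 2 brightest markers per list of other cells. Members and lists were chosen with earlier results of these data known. Counting and spread were tested on simulated data. Promoters came from RefSeq (GRCm38.p6). Alternatives were scaling by array median, by quantiles or by loess; a floor at the 20th percentile, at the 60th or absent; a constant of 36.3 added instead; the median over probe sets; leaving out probe sets ending in _s_at, _x_at or _a_at; and thresholds of 1.5-fold and 3-fold. Software was Python 3.11.15 with statsmodels 0.14.6, scipy 1.17.1, pandas 2.3.3 and numpy 2.4.6.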

Additional observations from a re-analysis of the deposited data

How the results depend on the processing

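Under 7 other scalings and floors, the ratio of each of the 16 member probe sets stayed within 1 SD of the probe set disagreement. All 16 had signals above 112.8 on both arrays, so the changes of floor could not move these ratios. In 6 cases the sign turned, all at ratios nearer 0 than 0.1: Smad2, Smad3 and Smad4 with array medians, and the second Smad7 probe set in the 3 scalings. The choice of probe sets moved more. With the median over a gene's probe sets Tgfb1 stood at 0.19, Smad2 at -0.18, Smad4 at -0.18, Smad7 at -0.31 and Skil at 0.0057. Tgfbr1 stood at -0.19 and Tgfbr2 at -0.046, but these 2 medians take in a bound from a probe set near the floor (0.11 and 0.024). They do not measure disagreement between usable probe sets. Without suffixed probe sets Smad2 stood at -0.34. The count of members at 2-fold stayed at 0 in both directions, except that without a floor Tgfb3 (2.6 in IL-5+ and 19.7 in IL-5- cells) counted as 1 lower gene, and at 1.5-fold 1 was higher and 1 lower. The median of the members ranged from -0.18 (median of probe sets) to -0.037 (array medians). Of all genes, 374 were higher and 526 lower by 2-fold; the counts were 1325 and 1572 with the floor lowered to the 20th percentile, 183 and 226 with it raised to the 60th, 2058 and 2314 with none, 1036 and 1563 at 1.5-fold, and 91 and 143 at 3-fold. Of the other pathway components, 6 higher and 5 lower became 13 and 10 at 1.5-fold and 3 and 1 at 3-fold; with the floor lowered, absent or raised in this way, 10, 12 and 2 were lower. A lower floor admits more dim genes by construction. No paired analysis was possible because each group has 1 array.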

Other observations

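TGF-beta can also use a kinase branch beside the SMADs. Of its 10 genes, 9 had ratios above 0 and 1 below, beside 55.7% of all genes below 0. At 2-fold there were 0 (median 0.16), beside 2.85% of all genes at least 2-fold higher and 4% lower. The ratios of Map3k7, Pak2, Shc1, Tab1 and Ppp2r2a lay within 1 SD of 0 (0.85, 0.61, 0.42, 0.18 and 0.07 SD). These signs are those of each gene's brightest probe set. The lowest probe sets of Rhoa (-0.64), Map3k7 (-0.15) and Cdc42 (-0.072) lay below 0. Tab2, an adaptor of the kinase TAK1, had 5878 in IL-5+ and 4424 in IL-5- cells (log2 ratio 0.41, 3.06 times the SD at that signal), Map3k7, which encodes TAK1, stood at 0.17 and the phosphatase gene Ppp2ca at 0.19. Traf6, the ubiquitin ligase upstream of TAK1, was the member below 0, with 755 in IL-5+ and 1087 in IL-5- cells (-0.53, 2.56 times the SD), and its 4 measured probe sets ranged from -0.85 to -0.44.

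Effector genes that TGF-beta is known to repress were split. Of 11, 7 had ratios above 0 and 4 below (median 0.47), beside 55.7% of all genes below 0. Tbx21 (2.82-fold) and Eomes (2.30-fold) were lower by more than 2-fold, as were 4% of all genes. Il2 had 36010 in IL-5+ and 19128 in IL-5- cells (0.91), and Fasl, a death ligand, 2230 in IL-5+ and 1246 in IL-5- cells (0.84).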
